A study of Mus musculus with 2 samples.

Results

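The genes that coat, fill and empty lipid droplets (LDs) were examined in single cells of cultured adult mouse neural stem/progenitor cells (NSPCs). The 10 genes were listed by name: the perilipins *Plin2* and *Plin3*, the lipases *Pnpla2*, *Lipe* and *Mgll*, the lipase regulators *Abhd5* and *Hilpda*, and the ester-forming enzymes *Dgat1*, *Dgat2* and *Soat1*. Of these, 9 were among the 15046 genes of the count table, and *Plin3* had no row, nor had the perilipins *Plin1*, *Plin4* and *Plin5*. The cells came from the subventricular zone of C57/Bl6 male mice aged 6 to 8 weeks, were pooled over mice and were grown with EGF and FGF-2, so that they proliferated. All of them belonged to 1 stable line that carried a retroviral construct, in which GFP is joined to the mouse *Plin2* coding sequence and driven by the CAG promoter. High PLIN2-GFP NSPCs were the 25% of cells with the most GFP signal and low PLIN2-GFP NSPCs the 25% with the least, and both were sorted into the wells of 2 plates.

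LDs store fatty acids as triacylglycerol and cholesterol as cholesteryl ester inside a single phospholipid layer. Perilipins sit on this layer and limit the access of lipases. PLIN2 is the main coat protein outside adipose tissue, and the protein is degraded when it is not bound to an LD. Triacylglycerol is made in its last step by DGAT1 and DGAT2 and is taken apart stepwise by ATGL (*Pnpla2*), hormone-sensitive lipase (*Lipe*) and monoacylglycerol lipase (*Mgll*).

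The line was sequenced by SORT-seq, which counts each mRNA once by a unique molecular identifier (UMI) near its 3′ end. Of the 304 cells, plate 1 gave 95 low and 84 high and plate 2 gave 72 low and 53 high PLIN2-GFP NSPCs. Each group of plate and category summed to between 778022 and 1029023 UMIs. High cells were the deeper ones, with a median of 11709 against 7856 UMIs per cell on plate 1 and 14729 against 11955 on plate 2. On each plate, 8 of the 16 rows of wells held the low and the other 8 the high cells, so that row and category cannot be told apart. Barcodes mark wells, and 59 of the 245 in use occurred on both plates. The line expressed the neural stem and progenitor markers *Fabp7*, *Vim*, *Nes*, *Hes1* and *Sox2* at a summed level of 6294 to 6404 CPM (counts per 1e6 UMIs) in the 4 groups. *Fabp7* and *Vim* made up most of this sum, while *Sox2* was at 20.6 to 32.6 CPM, with a whole UMI in 16.1% of cells. None of 5 adipocyte markers and none of 5 microglia markers had a row, the markers of neurons, oligodendrocyte lineage, endothelial cells and fibroblasts summed to at most 18.5 CPM per list, and astrocyte markers to between 74.7 and 126 CPM.

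The promoters of *Plin2*, the gene that differed between the sorted categories, and of *Pnpla2* and *Mgll*, which were lower in G2/M phase, are given from RefSeq (GRCm38.p6). Each run holds 250 bases before the annotated start and 30 bases after it. *Plin2* lies on the minus strand of chromosome 4 (chr4:86670030-86670309), *Pnpla2* on the plus strand of chromosome 7 (chr7:141454938-141455217) and the first of 2 listed *Mgll* promoters on the plus strand of chromosome 6 (chr6:88724162-88724441). Capitals mark matches on either strand to CACGTG (the E-box that bHLH factors bind), GGGCGG (the GC box), AGGTCA (the nuclear receptor half-site) and TTTGAA (an element of late cell cycle promoters).
Plin2: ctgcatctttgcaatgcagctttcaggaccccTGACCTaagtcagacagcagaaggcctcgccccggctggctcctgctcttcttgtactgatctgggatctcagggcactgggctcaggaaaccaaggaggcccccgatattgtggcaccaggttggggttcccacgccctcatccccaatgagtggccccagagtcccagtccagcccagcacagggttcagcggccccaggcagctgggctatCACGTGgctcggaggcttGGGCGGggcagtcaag
Pnpla2: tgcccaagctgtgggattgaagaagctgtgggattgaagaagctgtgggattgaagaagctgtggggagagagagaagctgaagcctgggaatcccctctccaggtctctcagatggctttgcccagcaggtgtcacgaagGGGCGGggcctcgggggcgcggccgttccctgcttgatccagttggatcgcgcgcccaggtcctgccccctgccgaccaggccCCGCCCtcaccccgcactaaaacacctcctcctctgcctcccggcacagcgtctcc
Mgll: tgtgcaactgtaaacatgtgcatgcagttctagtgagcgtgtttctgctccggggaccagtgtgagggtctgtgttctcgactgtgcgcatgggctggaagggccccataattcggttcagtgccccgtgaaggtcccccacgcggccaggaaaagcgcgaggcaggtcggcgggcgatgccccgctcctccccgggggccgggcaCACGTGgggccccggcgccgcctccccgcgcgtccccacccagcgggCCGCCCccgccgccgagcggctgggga
The *Plin2* promoter held 1 AGGTCA match at base 33, 1 CACGTG at base 247 and 1 GGGCGG at base 265 of the run. The *Mgll* promoter held 1 CACGTG at base 207 and 1 GGGCGG at base 254, and the *Pnpla2* promoter held 2 GGGCGG matches. TTTGAA was in none of these 3 windows. Over all 32851 promoters cut in the same way, 6.79% held CACGTG, 34.7% GGGCGG, 15.3% AGGTCA and 17.2% TTTGAA. Promoters of 8 of the 10 genes were listed.

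To ask whether the sorted LD reporter went along with the mRNA of its own gene, *Plin2* was compared first. The rounded counts of *Plin2* were 18 and 19 in the low and 80 and 36 in the high cells of plates 1 and 2. After TMM scaling, its level was 23.7 and 23.1 CPM in low and 77.8 and 46.3 CPM in high PLIN2-GFP NSPCs. The 2 high sums differed from each other more than the 2 low ones did. *Plin2* rose 2.63-fold (95% interval 1.77 to 3.90), with a log2 fold change of 1.39 ± 0.29 (SE, n = 2 plates) and an adjusted p of 0.000411 by edgeR's quasi-likelihood test with Benjamini-Hochberg adjustment. The spread in this test came mainly from all genes tested, and that of *Plin2* between its 2 plates entered little. Without the plate as a block the adjusted p was 0.380, and in G1 cells alone, where fewer counts are left, it was 0.212 with a log2 fold change of 1.68. The construct carries the *Plin2* coding sequence, so that its transcripts and those of the endogenous gene cannot be told apart here.

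**Figure D1:**
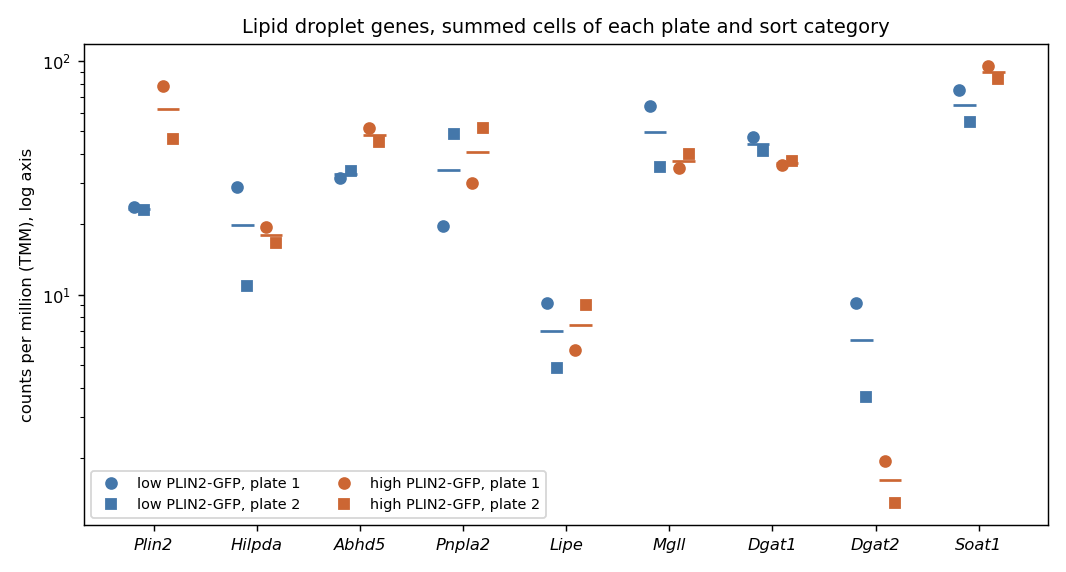
Level of each of the 9 genes in CPM after TMM scaling (log axis), in the summed cells of each plate (circles, plate 1, squares, plate 2) and category (blue, low, orange, high PLIN2-GFP), with bars at the mean of the 2 plates. *Plin2* lies at 23.7 and 23.1 in low and at 77.8 and 46.3 in high cells.

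The rise of *Plin2* was also seen cell by cell. At least 1 whole *Plin2* UMI was found in 7.37% of low cells (exact binomial 95% interval 3.01% to 14.6%) and 36.9% of high cells (26.6% to 48.1%) on plate 1. On plate 2, these shares were 12.5% (5.88% to 22.4%) and 30.2% (18.3% to 44.3%), so that the intervals were apart on plate 1 and overlapped on plate 2. High cells were deeper, so that cells of at least 5000 UMIs were thinned to 5000 and the others left out. This kept 72 low and 73 high cells of plate 1 and 64 and 50 of plate 2. The expected shares were 4.98% in low against 24.5% in high cells of plate 1 and 6.25% against 14.1% on plate 2. The order of the categories on each plate was thus the same at equal depth in these cells, with a smaller gap. The summed counts of thinned cells gave a log2 fold change of 1.46 with an adjusted p of 0.121 by edgeR, which missed the threshold. In 20 further draws, added after the data had been seen, *Plin2* could be tested in 15 and was called in 3 (median 1.33). Testing required passing the low-count filter, which for *Plin2* at this depth depended mainly on its counts in high cells. The tested draws therefore lean towards a rise and are no separate support for it. At the depth as sequenced, no low cell held 3 or more whole *Plin2* UMIs, whereas 10 high cells of plate 1 and 4 of plate 2 did. These 10 cells contributed 48 of the 76 whole UMIs of their group, and the highest cell held 8. Weighting each cell equally, without TMM scaling, gave a log2 ratio of 1.35 on plate 1 and 0.83 on plate 2. These lay below the TMM-scaled ratios of the summed counts of 1.72 and 1.01. Without that scaling, the sums were at 21.8 CPM in low cells of both plates and at 77.3 and 45.6 CPM in high cells.

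*Plin2* differed from the other 8 genes in how its UMIs had been assigned. The deposited counts are estimates that split a UMI between genes whose transcripts match its read equally, and 16.7% of the *Plin2* counts were such parts, against a median of 0.26% over 7604 genes with at least 50 counts. Of the other members, only *Lipe* had any (2.13%). Of these genes, 6.63% had a share at or above that of *Plin2*. A part of a *Plin2* UMI was present in 55 cells and was 0.5 in 50 of them. The parts made up 48.6% and 41.2% of the *Plin2* counts in low cells of plates 1 and 2, but 4.41% and 15.5% in high cells. Whole UMIs amounted to 11.2 and 12.8 CPM in low and 73.9 and 38.6 CPM in high cells, whereas the parts amounted to 10.6 and 8.97 CPM in low and 3.41 and 7.08 CPM in high cells. The parts were therefore not higher in high cells on either plate. Of the 55 cells with a part, 51 held no whole *Plin2* UMI. Leaving out the parts takes a larger share of the counts from low than from high cells, so that whole UMIs are no separate check of the rise. With whole UMIs only, the log2 fold change of *Plin2* was 2.11, and with each part counted as a full UMI, a setting chosen after the data had been seen, it was 1.00. It was called by edgeR under both settings, with adjusted p-values of 7.43e-07 and 0.0105. Among annotated transcripts (GENCODE M21, GRCm38), the unprocessed pseudogene *Gm12551* at chr4:86627075-86631251, beside *Plin2* at chr4:86648386-86670060 on the same strand, was the only other gene that shared a run of 60 bases with *Plin2*. It shared 60 of the 3506 such runs of *Plin2*, at 113 to 206 bases from the 3′ end, and had no row in the table. Of the other genes of the table, *Tmem198b* had the largest excess of parts in the cells with a part of a *Plin2* UMI. It had a part in 27 of these 55 cells, a share 28.2 percentage points above that of the other cells. The roles of *Gm12551* and *Tmem198b* in the split UMIs were not tested.

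**Figure D2:**
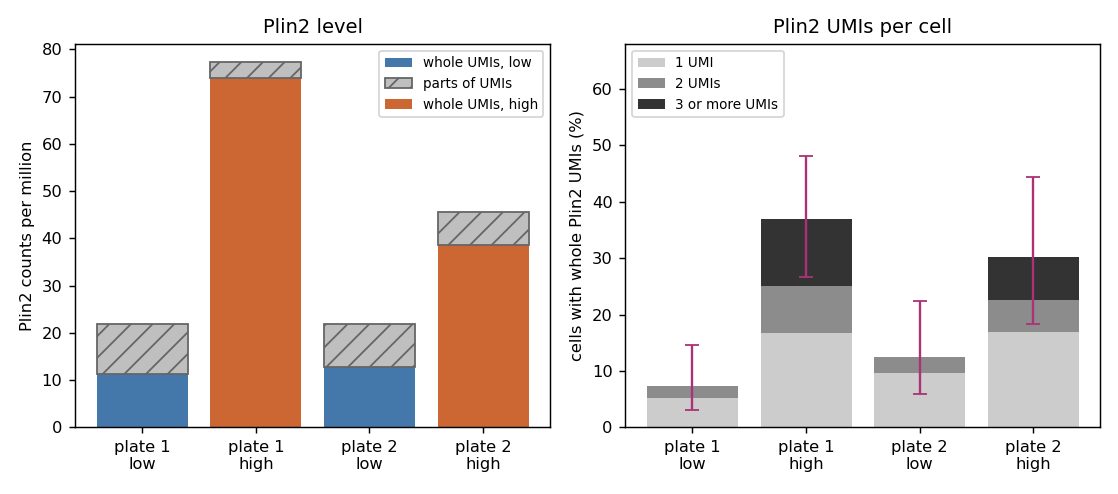
Left, *Plin2* CPM without TMM scaling in each plate and category, split into whole UMIs (solid) and parts of UMIs (hatched). Right, percentage of cells with 1, 2 or at least 3 whole *Plin2* UMIs, with the exact binomial 95% interval of the total (line); no low cell lies in the class of 3 or more.

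Over all genes, 179 of 8348 tested differed between high and low PLIN2-GFP NSPCs, which is 2.14%, with 74 higher (0.886%) and 105 lower (1.26%). With library size alone as the scaling, these numbers were 153 and 84. Of the 7 LD genes with enough counts to be tested, only *Plin2* was called. The median log2 fold change of these 7 was 0.28, beside 0.00 over all genes tested.

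The regulators of triacylglycerol breakdown did not pass the test. *Abhd5* encodes the co-activator of ATGL, and its level was 31.6 and 34.0 CPM in low and 51.5 and 45.0 CPM in high cells of plates 1 and 2. The log2 fold change of *Abhd5* was 0.56 ± 0.28 (interval 0.01 to 1.11, adjusted p = 0.439 by edgeR). *Hilpda*, an inhibitor of ATGL, was at 28.9 and 10.9 CPM in low and 19.5 and 16.7 CPM in high cells. The plates went opposite ways for *Hilpda*, and its log2 fold change of -0.15 had an interval of -0.90 to 0.61.

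Among the lipases, *Pnpla2* was at 19.7 and 48.6 CPM in low and 30.1 and 51.5 CPM in high cells. The plates differed more in *Pnpla2* than the categories did, and its log2 fold change was 0.28 (interval -0.29 to 0.84, adjusted p = 0.827 by edgeR). *Mgll*, which splits the last fatty acid from glycerol, was at 64.5 and 35.2 CPM in low and 35.0 and 39.9 CPM in high cells. The low sum of plate 1 stood apart from the other *Mgll* sums, and its log2 fold change was -0.42 (interval -0.96 to 0.11, adjusted p = 0.614 by edgeR). *Lipe* was scarce, with 7 and 3.5 counts in low and 6 and 7 in high cells, and was not tested.

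Of the ester-forming enzymes, *Soat1*, which makes cholesteryl ester, was the most widely detected, with a whole UMI in 52.3% of all cells. Its level was 75.0 and 54.6 CPM in low and 95.3 and 83.6 CPM in high cells. Its log2 fold change of 0.46 ± 0.21 (interval 0.06 to 0.87) missed the threshold after adjustment (adjusted p = 0.354 by edgeR), and in G1 cells alone it was 0.19. *Dgat1* was at 47.4 and 41.3 CPM in low and 36.0 and 37.3 CPM in high cells, with a log2 fold change of -0.28 (interval -0.82 to 0.27, adjusted p = 0.811). *Dgat2* had only 7 and 3 counts in low and 2 and 1 in high cells, too few to be tested. The intervals of *Hilpda*, *Pnpla2*, *Mgll* and *Dgat1* include 0, and differences within them were not detectable at this depth.

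The share of cells with a whole UMI was then compared, in all cells as sequenced and in cells of at least 5000 UMIs at equal depth. *Abhd5* was found in 23.2% and 34.7% of low and 40.5% and 45.3% of high cells of plates 1 and 2, and the shares expected at 5000 UMIs were 16.1% and 14.0% in low and 20.2% and 21.9% in high cells. *Soat1* was found in 47.4% and 41.7% of low and 61.9% and 60.4% of high cells, or 30.7% and 24.2% against 39.0% and 32.8% at 5000 UMIs. For *Mgll* and *Dgat1* the direction on plate 2 differed between these 2 settings, in which both the depth and the set of cells change. As sequenced, *Mgll* was found in 30.5% and 30.6% of low and 27.4% and 34.0% of high cells, and *Dgat1* in 31.6% and 31.9% against 29.8% and 41.5%. At 5000 UMIs, *Mgll* was at 22.1% and 17.5% in low and 14.8% and 13.8% in high cells, and *Dgat1* at 20.4% and 17.9% against 14.6% and 15.6%, lower in high cells on both plates. At most 6.32% of the cells of any group held a whole *Dgat2* UMI. As sequenced, no low cell but 5 high cells of plate 1 and 3 of plate 2 held 3 or more *Abhd5* UMIs. The same held for *Pnpla2*, with 2 high cells of plate 1 and 5 of plate 2. High cells were deeper, and these counts were not adjusted for depth.

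**Figure D3:**
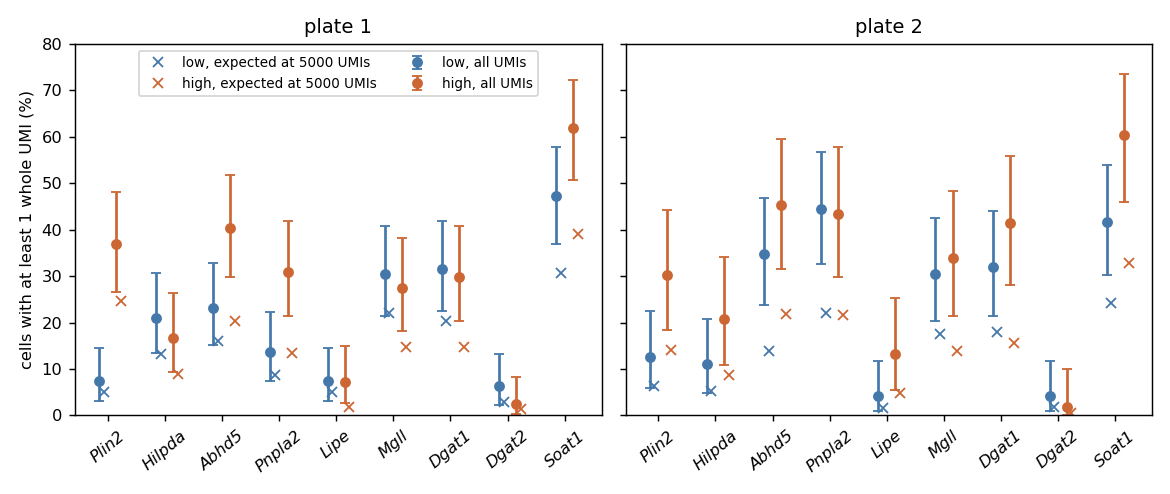
Percentage of cells with at least 1 whole UMI of each gene on plate 1 (left) and plate 2 (right), with exact binomial 95% intervals, for low (blue) and high (orange) PLIN2-GFP NSPCs; crosses are the shares expected if every cell with at least 5000 UMIs were thinned to 5000. *Plin2* in plate 1 goes from 7.37% in low to 36.9% in high cells, and from 4.98% to 24.5% at equal depth.

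The other genes of LD metabolism gave no call between the categories. Of 69 genes listed beside the members, 53 had a row and 37 were tested, and 0 of them were called higher or lower. Their median log2 fold change was 0.09, with 22 of the 37 above 0, beside 4152 of all 8348 genes tested. Among genes of LD formation, the smallest p was that of *Acsl4*, which activates long-chain polyunsaturated fatty acids. *Acsl4* was at 21.0 and 19.4 CPM in low and 8.75 and 9.0 CPM in high cells, with a log2 fold change of -1.18 ± 0.44 and an adjusted p of 0.207 by edgeR. *Srebf1*, a master regulator of fatty acid synthesis, was at 60.5 and 60.7 CPM in low and 88.5 and 83.6 CPM in high cells (log2 fold change 0.51 ± 0.21, adjusted p = 0.304). Neither change passed the threshold, and each gene was named for having the smallest p of its list. *Apoe*, the apolipoprotein that carries cholesterol between brain cells, had a log2 fold change of 0.28 ± 0.12 and an adjusted p of 0.343 by edgeR. The smallest p among the other lipases was that of *Daglb*, which splits diacylglycerol (log2 fold change 0.60 ± 0.31, adjusted p = 0.471). Among the acyltransferases and phosphatases that act before the DGAT enzymes it was that of *Agpat5* (0.26 ± 0.18, adjusted p = 0.682). Of the 5 progenitor markers, 1 was called between the categories by edgeR, *Vim* with a log2 fold change of -0.22 and an adjusted p of 0.0399. The others, *Nes* (0.11), *Hes1* (0.27), *Fabp7* (0.05) and *Sox2* (-0.04), were not called.

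The members were next compared between phases of the cell cycle, as scored and deposited by the authors. G1 held 132 cells, S phase 77 and G2/M phase 95. S phase cells were the deepest, with a median of 10994 and 15301 UMIs on plates 1 and 2, against 8290 and 9825 in G1 and 9565 and 12902 in G2/M. *Mgll* was at 67.2 and 53.3 CPM in G1, 30.8 and 37.7 CPM in S and 37.4 and 23.6 CPM in G2/M cells of plates 1 and 2. Both G1 sums were above all S and G2/M sums. In G2/M, *Mgll* fell 1.96-fold, with a log2 fold change of -0.97 ± 0.31 (interval -1.60 to -0.34) and an adjusted p of 0.0352 by edgeR. *Pnpla2*, which starts the breakdown that *Mgll* completes, was at 32.9 and 71.8 CPM in G1, 22.0 and 49.7 CPM in S and 20.4 and 31.4 CPM in G2/M cells. On each plate G1 was highest, although the groups overlapped across plates, and *Pnpla2* fell 1.97-fold in G2/M (log2 fold change -0.98 ± 0.33, adjusted p = 0.0545 by edgeR). These calls were 2 of the 7 members tested, beside 16.4% of the 7650 genes tested overall (8.98% higher and 7.41% lower). DESeq2 called neither, with adjusted p-values of 0.715 for *Mgll* and 0.805 for *Pnpla2*, and without the plate block *Mgll* (0.0951) but not *Pnpla2* (0.246) was called.

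**Figure D4:**
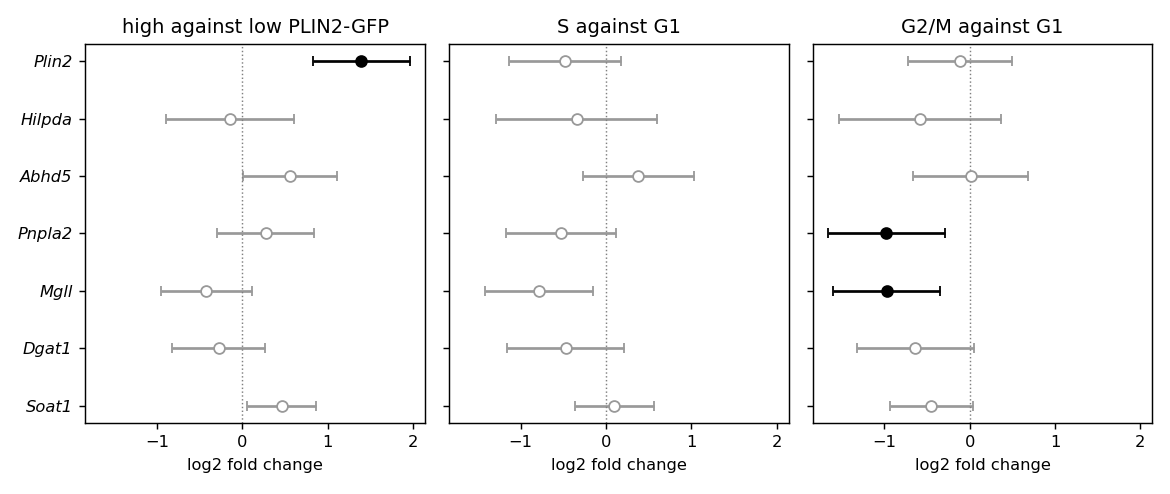
Log2 fold change of the 7 tested members with 95% intervals from edgeR, for high against low PLIN2-GFP, S against G1 and G2/M against G1; filled black points have an adjusted p under 0.1. These are *Plin2* (1.39) in the first and *Pnpla2* (-0.98) and *Mgll* (-0.97) in the last panel.

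Equal depth, in cells of at least 5000 UMIs, left the direction of both lipases as it was, with less certain calls. The share of G1, S and G2/M cells expected to hold an *Mgll* UMI at 5000 UMIs was 25.6%, 10.7% and 13.8% for plate 1 and 21.6%, 13.7% and 10.6% for plate 2. *Pnpla2* gave 13.9%, 8.86% and 8.65% for plate 1 and 28.5%, 21.9% and 13.1% for plate 2. In the 20 thinning draws, *Mgll* could be tested in 14 and was called in 7, with a log2 fold change between -1.67 and -0.60. *Pnpla2* could be tested in 6 of the draws and was called in 1. The low-count filter favours draws with many counts in G1 cells, where both genes were highest on each plate. The tested draws therefore lean towards a fall, and the direction at equal depth rests on the expected shares.

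In S phase, 12.7% of the 7650 genes tested were called against G1 (7.53% higher and 5.19% lower), and none of the 7 members. With library size alone as the scaling, 682 genes were higher and 242 lower in S, beside 576 and 397 with TMM. *Mgll* came nearest, with a log2 fold change of -0.78 ± 0.31 and an adjusted p of 0.118 by edgeR. In cells thinned to 5000 UMIs it was called by edgeR, with a log2 fold change of -1.67 and an adjusted p of 0.0364. In the 20 further draws it was called in 6 of the 14 in which it could be tested (median -1.33). These thinned fits lean towards a fall through the low-count filter, as in G2/M. The median of the 7 members was -0.47 in S and -0.58 in G2/M, beside -0.03 and -0.02 over all genes tested. *Plin2* was at 56.2 and 45.1 CPM in G1, 39.6 and 30.9 CPM in S and 64.6 and 27.5 CPM in G2/M. The plates disagreed on *Plin2* in G2/M, and its log2 fold changes of -0.49 in S and -0.11 in G2/M had intervals that included 0. *Dgat1* (-0.64, interval -1.33 to 0.06) and *Hilpda* (-0.58, interval -1.53 to 0.37) were not called in G2/M, nor was *Soat1* (-0.45, interval -0.94 to 0.04). *Abhd5*, with 0.01 (interval -0.67 to 0.69) in G2/M, was the member with the estimate nearest to 0.

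Of the 33 other LD metabolism genes tested between phases, 2 were higher and 4 lower in G2/M (18.2%, beside 16.4% of all genes tested), and 0 higher and 3 lower in S (9.09%, beside 12.7%). These shares lay near those of all genes, and the remaining genes were called in neither phase. The called genes are given by name. *Apoe* was at 531 and 342 CPM in G1, 396 and 189 CPM in S and 167 and 114 CPM in G2/M, and fell by 0.61 in S and by 1.64 in G2/M on the log2 scale (adjusted p = 0.00402 and 3.61e-09 by edgeR). *Abca1*, which exports cholesterol to apolipoproteins, was at 132 and 119 CPM in G1 and 40.8 and 19.7 CPM in G2/M. It fell by 0.66 in S and by 2.02 in G2/M (adjusted p = 0.0667 and 2.17e-06 by edgeR). *Lpin1*, the phosphatidate phosphatase that forms the diacylglycerol used by the DGAT enzymes, fell by 0.87 in S and by 0.74 in G2/M. *Agpat3*, an acyltransferase of the same pathway, fell by 0.58 in G2/M (adjusted p = 0.0401), whereas *Lpin2* (0.74, adjusted p = 0.0866) and *Acsl3* (0.60, adjusted p = 0.0152), an acyl-CoA synthetase of nascent LDs, rose in G2/M. DESeq2 called *Apoe* and *Abca1* in G2/M and none of the other 4. Astrocyte markers moved with the phase too: the 5 of them summed to 149 and 121 CPM in G1, 112 and 80.6 CPM in S and 73.1 and 66.8 CPM in G2/M cells of plates 1 and 2. *S100b* went from 34.3 and 10.3 CPM in G1 to 1.70 and 1.97 CPM in G2/M, while *Gfap* was at 0 in all groups but the G2/M cells of plate 1 (1.70 CPM). *Aldh1l1*, the only one with enough counts to be tested, was not called in G2/M (log2 fold change -0.61, adjusted p = 0.118 by edgeR). Of the 5 progenitor markers, *Vim* fell by 0.29 in G2/M, and in S *Fabp7* fell by 0.23 (adjusted p = 0.0448) and *Nes* rose by 0.44 (adjusted p = 0.0450). The part of these markers in the changes of *Apoe* and *Abca1* was not tested.

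**Figure D5:**
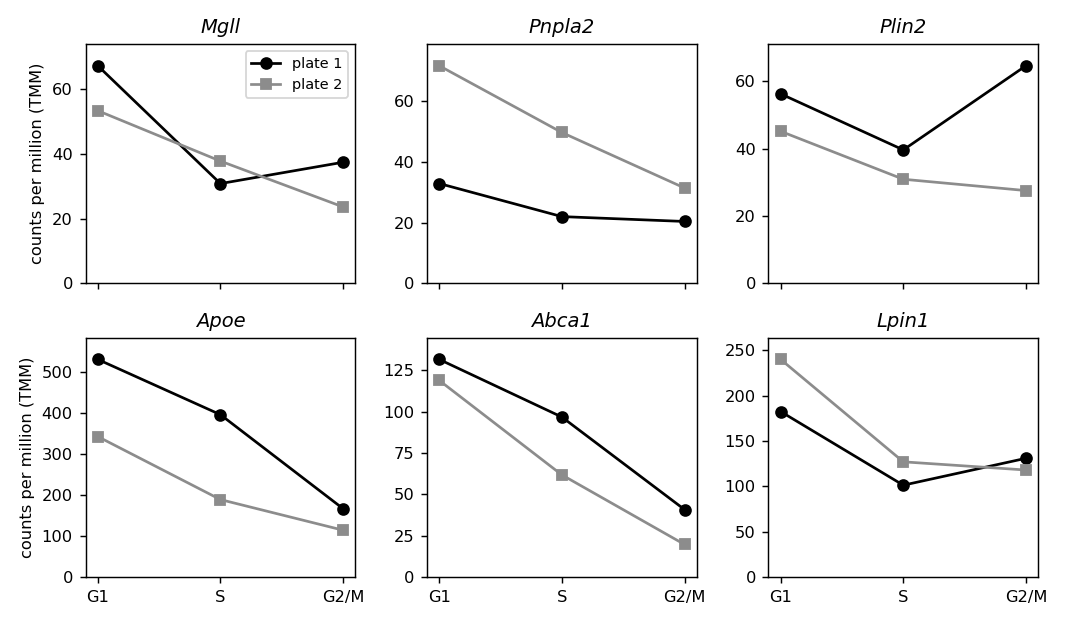
CPM after TMM scaling in G1, S and G2/M cells of plate 1 (black circles) and plate 2 (grey squares) for 3 members (top) and 3 other genes of lipid handling (bottom); each axis starts at 0. *Mgll* goes from 67.2 and 53.3 in G1 to 37.4 and 23.6 in G2/M, and *Abca1* from 132 and 119 to 40.8 and 19.7.

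Whether the reporter categories differed in the same way in G1 cells as in S and G2/M cells was tested as an interaction. In G1 cells, *Plin2* was at 21.0 and 30.0 CPM in low and 94.4 and 62.1 CPM in high cells of plates 1 and 2. In the sum of S and G2/M cells, it was at 24.3 and 20.1 CPM in low and 70.9 and 40.8 CPM in high cells. High was above low in each of these 4 pairs of sums. The interaction of *Plin2* was -0.38 on the log2 scale (interval -1.56 to 0.79, adjusted p = 0.982 by edgeR), and differences within this interval were not detectable. Of 6935 genes tested, edgeR called 0 (0%), with 219 higher and 153 lower at an unadjusted p under 0.05, and DESeq2 also called 0. None of the 7 members was called, and their interactions ranged from -0.71 for *Hilpda* to 0.51 for *Soat1*.

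The authors' 2 clusters divide the categories unevenly. Cluster 0 held 61 high and 31 low cells on plate 1 and 40 and 23 on plate 2, and cluster 1 held 23 high and 64 low cells and 13 and 49. Clusters were made from the same counts, so their levels are given without a test. *Plin2* was at 64.5 and 37.7 CPM in cluster 0 and 41.1 and 28.0 CPM in cluster 1 of plates 1 and 2. Within high cells alone it was at 72.7 and 46.2 CPM in cluster 0 and 87.0 and 43.5 CPM in cluster 1, and within low cells at 39.4 and 17.9 CPM against 14.8 and 23.5 CPM. The plates disagreed on the order of the clusters once the categories were separated. *Soat1* was higher in cluster 0 on both plates, at 93.6 and 79.6 CPM against 75.4 and 53.4 CPM, and so was *Abhd5*, at 59.2 and 42.7 CPM against 24.4 and 33.8 CPM. *Hilpda* was lower in cluster 0, at 16.1 and 11.5 CPM against 30.0 and 15.6 CPM. Within a category, each of these orders turned in 1 of its 4 groups. *Soat1* was at 94.1 against 97.6 CPM in high cells of plate 1, *Abhd5* at 42.9 against 52.2 CPM in high cells of plate 2, and *Hilpda* at 15.3 against 8.39 CPM in low cells of plate 2.

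Across cells of a group, the measured correlation of the other members with *Plin2* was small. *Plin2* had a whole UMI in only 20.7% of all cells, and counts this sparse draw r towards 0. Whether these genes are expressed together can therefore not be judged from it. Pearson's r of log2(CPM + 100) was computed within each plate and category and averaged over these 4 groups. The mean r ranged from -0.11 for *Lipe* to 0.08 for *Dgat1*, and its median over the 8 members was 0.02, beside a median of 0.02 over 8299 genes found in at least 10% of cells. Over those genes, the 5th and 95th percentiles were -0.08 and 0.13, and *Lipe*, found in 7.57% of cells, was the only member outside them. Single groups varied widely: for *Abhd5*, r was 0.04 and 0.14 in low and -0.25 and -0.10 in high cells, and for *Hilpda* -0.16 and 0.13 in low and 0.25 and -0.06 in high cells. The genes most like *Plin2* were *Anxa5* (mean r 0.24), *Aida* (0.24), *Anp32a* (0.23), *Rgs19* (0.23) and *Eif2s1* (0.22). These 5 are the upper end of 8299 correlations over sparse counts, and over cells of at least 5000 UMIs their mean r was 0.14 for *Anxa5*, 0.23 for *Aida*, 0.23 for *Anp32a*, 0.18 for *Rgs19* and 0.22 for *Eif2s1*. *Plin2* itself had a mean r of 0.13 with the log2 total UMIs of a cell, and all of these points share plates and depth.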

How the data were processed

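Cells were sorted into 384-well plates and sequenced by SORT-seq. Per the labels, the authors assigned reads with Salmon alevin on GRCm38 (the versions are not given in the sources used here). The deposited values are estimated counts of UMIs per gene and cell, not normalized, and 87.1% of the values above 0 are whole within 1e-06, the others holding parts of UMIs. The authors' table of cells holds counts of UMIs and genes, the mitochondrial percent and the ribosomal and mitochondrial fraction, scores, plate, category, phase and cluster. Its doublet and cell cycle scores were deposited and not used. The authors removed doublets, and none were called here. All 304 columns were joined to cells by equal totals and gene numbers.

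Counts were summed per plate and category (4 sums), plate and phase (6) or plate, category and G1 or not (8) and rounded. They were fitted by edgeR's quasi-likelihood test (version 4.0.16, R 4.3.3) with TMM factors, its low-count filter and a block for plate. Benjamini-Hochberg adjustment ran over all genes tested, and genes under 0.1 were called, the level of the study. The SE is the log2 fold change divided by the root of F. The sums left 1, 2 and 3 residual degrees of freedom. Plates pair the sums by design, and deviations of the low and high sums of a plate correlated at 0.30 over 8348 genes. Plates are libraries of 1 line, so the spread between them may be technical. edgeR draws the spread of each gene towards that shared by all genes tested. With so few residual degrees of freedom, p-values and intervals rest mainly on this shared spread and little on a gene's own spread between the 2 plates. Exact binomial intervals cover counting error only. Alternatives used DESeq2 1.42.0 and limma 3.58.1 voom, other scalings and filters, cells under 20% mitochondrial counts and thinning, and the fits were tested on simulated data. Python 3.11.15, scipy 1.17.1 and matplotlib 3.10.9 were used. The members, gene lists and alternatives were chosen with earlier results of these data known. Named were the members, listed genes called in a comparison, else the tested gene of a list with the smallest p, and the 5 genes closest to *Plin2*.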

Additional observations from a re-analysis of the deposited data

How the results depend on the processing

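The number of genes called between high and low PLIN2-GFP NSPCs (179) was 1 with no replicate block, 11 by DESeq2 (which left 7930 of 8348 genes, *Plin2* among them, without an adjusted p), 8 in G1 cells, 66 in cells thinned to 5000 UMIs and 52 as the median of 20 further draws. The log2 fold change of *Plin2* was no longer called with no plate block (1.43), in the thinned cells (1.46), in G1 cells (1.68) and in the median draw (1.33, range 0.20 to 1.85, called in 3 of 15 draws in which it passed the filter). It ranged from 1.01 to 1.72 without either plate, kept its direction under every alternative run, and was 1.37 by DESeq2 with an unadjusted p of 0.0177. S phase calls (973) were 443 without the block, 207 by DESeq2, 358 thinned and 349.5 in the median draw, and G2/M calls (1254) were 657, 317, 539 and 540.5. Interaction calls (0) were 2 with DESeq2 size factors, library size only, under 20% mitochondrial counts, whole UMIs or parts counted as 1, and 8 without a filter.

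Without 1 plate, several differences changed sign and ranged over the 2 plates as follows. Between categories, *Hilpda* ranged from -0.57 to 0.61 and *Mgll* from -0.88 to 0.18. In S, *Dgat1* ranged from -1.16 to 0.12 and *Soat1* from -0.042 to 0.27. In G2/M, *Plin2* ranged from -0.71 to 0.20 and *Abhd5* from -0.44 to 0.56. For the interaction, the ranges were -0.36 to 0.92 for *Pnpla2*, -1.25 to 0.88 for *Dgat1*, -0.51 to 0.75 for *Mgll* and -0.053 to 1.33 for *Soat1*. Under other settings, *Hilpda* between categories was 0.081 with equal cell weights, *Soat1* in S was -0.051 thinned, and in G2/M *Plin2* was 0.11 and *Abhd5* -0.064 in the median draw and *Abhd5* -0.022 under 20% mitochondrial counts. The interaction was 0.11 by DESeq2 and 0.0013 unfiltered for *Pnpla2*, and thinned -0.57 for *Abhd5* and -0.33 for *Soat1*. The high minus low share of cells with a *Plin2* UMI, 23.6 percentage points (17.7 to 29.5 without either plate), was 13.7 at 5000 UMIs. The log2 ratio of *Plin2* between clusters 0 and 1, 0.54 (0.43 to 0.65), was -0.085 within high cells. The median r of members with *Plin2* was -0.03 to 0.04 without either plate. The thinned fits rest on 259 cells, and a sparse member entered them only where its counts passed the low-count filter. The causes were not tested.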
